A study of Homo sapiens with 8 samples.

Results

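Interferon response and antigen presentation genes were described as a set of 48 named genes among the 57905 genes of the deposited table, given by a list of names grouped by function. The set holds 6 interferon receptors and kinases, 5 transcription factors, 5 genes of nucleic acid sensing, 21 interferon-stimulated effectors and 11 genes of class I antigen presentation, and all 48 were found in the table. RNA was sequenced from 8 human prostate cancer cell libraries. EnzaR cells, a line resistant to the antiandrogen enzalutamide and grown with 10 uM of it, were transfected with 40 nM siRNA against YAP1 (siYAP1, 2 libraries) or with 40 nM control siRNA (siNC, 2 libraries) for 48 h. LNCaP cells, an androgen-sensitive line derived from a lymph node metastasis and grown without the drug, received for 48 h extracellular vesicles (EVs) that came from EnzaR cells with YAP1 knocked down (EV-siYAP1, 1 library), with a factor labelled CII knocked down (EV-siCII, 1 library) or with control siRNA (EV-siNC, 1 library), or received vehicle (control, 1 library). The labels do not state separately how long the control was kept. YAP1 is a transcriptional co-activator that the Hippo kinase cascade holds in check. Nothing in the labels tells whether libraries of 1 group are separate cultures, and p-values therefore gauge library-to-library spread alone, part or all of which could be technical. Enzalutamide in the medium and siRNA transfection were shared by every EnzaR library and by no LNCaP library, so they cannot be told apart from the line.

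Interferons of type I and type II bind their receptors on the cell surface and activate receptor-bound Janus kinases, which phosphorylate STAT proteins. A complex of STAT2, IRF9 and a further STAT protein then binds interferon-stimulated response elements (ISRE) in the promoters of antiviral genes, while type II interferon acts through STAT dimers at GAS elements. The same signals raise the class I pathway, in which the proteasome cuts cytosolic proteins into peptides, the TAP transporter carries them into the endoplasmic reticulum, and an HLA heavy chain paired with B2M presents them to T cells. LNCaP cells have been described as deficient in JAK1, a kinase that both signals need.

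Promoter sequence describes the set apart from its expression values. RefSeq promoter windows on GRCh38.p14, 250 bases before to 50 bases after a start site, were at hand for 35 of the 48 genes. ISRE-type letters, here GAAA, any 2 bases and GAAA, or TTTC, any 2 bases and TTTC as the same motif reads on the other strand, stood in 19 of these 35 windows (54.3%), against 996 of all 27305 windows (3.65%). They stood in 13 of 15 windows of interferon-stimulated effectors, 5 of 9 of class I genes, 1 of 3 of sensing genes, 0 of 5 of receptors and kinases and 0 of 3 of transcription factors. GAS-type letters, TTC, any 3 bases and GAA, which read the same on both strands, stood in 7 of 35 windows against 2152 of all 27305 (7.88%). Both motifs were searched on their own, so matches of one may overlap those of the other. A match describes letters and is not evidence of a bound site. The 6 stretches printed next, of 100 bases each and all upstream of the start site, belong to genes on which the results turn or that frame them, with ISRE-type letters in capitals. Capitals run longer than 10 letters where matches overlap.
IFI6 (chr1:27672263-27672362, minus strand): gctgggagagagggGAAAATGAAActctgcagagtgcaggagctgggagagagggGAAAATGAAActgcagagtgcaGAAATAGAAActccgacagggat
IFIT1 (chr10:89392453-89392552, plus strand): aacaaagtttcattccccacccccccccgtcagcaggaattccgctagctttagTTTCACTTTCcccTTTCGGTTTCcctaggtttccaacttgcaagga
ISG15 (chr1:1013327-1013426, plus strand): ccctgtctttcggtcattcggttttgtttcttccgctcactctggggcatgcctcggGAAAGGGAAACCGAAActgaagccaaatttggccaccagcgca
IFI44 (chr1:78649689-78649788, plus strand): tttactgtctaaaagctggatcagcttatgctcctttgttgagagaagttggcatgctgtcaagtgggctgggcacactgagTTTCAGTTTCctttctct
B2M (chr15:44711347-44711446, plus strand): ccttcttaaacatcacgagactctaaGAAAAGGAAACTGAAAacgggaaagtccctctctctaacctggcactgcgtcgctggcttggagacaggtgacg
TAP1 (chr6:32853775-32853874, minus strand): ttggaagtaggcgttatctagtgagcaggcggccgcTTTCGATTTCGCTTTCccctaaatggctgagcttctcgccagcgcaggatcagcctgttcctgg
IFI6 carried 3 such matches in its window, and IFIT1, ISG15, B2M and TAP1 carried 2 each. IFI44 carried 1, whose first letter lay 18 bases before the start site.

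Total counts ran between 16682669 and 18248939 per library, so that 3 counts were worth 0.164 to 0.18 CPM (counts scaled to a common library size). CPM values were scaled with TMM factors over all 8 libraries, and levels of different genes are set against each other only in the authors' FPKM, which divide by exonic length. The targeted gene fitted its labels. YAP1 was at 6.03 and 7.26 CPM in the siYAP1 libraries, against 59.8 and 48.9 CPM in the siNC libraries, and both depleted libraries were far under both others (edgeR adjusted p = 2.07e-10, log2 fold change -3.02, SE 0.154). Luminal epithelial markers summed to 2623 to 2856 CPM over the EnzaR libraries and 3207 to 3749 CPM over the LNCaP libraries. Leukocyte markers summed to 1.04 to 1.27 CPM in EnzaR and 2.56 to 3.06 CPM in LNCaP libraries. Of the 10 markers, PTPRC, CD3E and MS4A1 were at 0 in every library, and the highest count of any marker in a library was 36. A lower level in every cell and expression in fewer cells cannot be told apart in these bulk libraries.

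Both lines expressed the class I heavy chains and a few effectors strongly and most of the antiviral program weakly. In EnzaR libraries the highest levels were those of HLA-C, a class I heavy chain, at 175 ± 8.23 FPKM, of ISG15, a ubiquitin-like modifier, at 172 ± 16.7 FPKM, of B2M, the invariant light chain, at 112 ± 5.14 FPKM, and of IFITM3, a membrane protein that blocks virus entry, at 63.9 ± 7.75 FPKM (SD, n = 4). The order of HLA-C and ISG15 lay within their spread. In LNCaP libraries ISG15 led at 193 ± 8.65 FPKM, ahead of HLA-C at 121 ± 3.22, IFITM3 at 94.0 ± 7.25 and HLA-E, a class I molecule read by natural killer cells, at 35.3 ± 3.86 FPKM (SD, n = 4). B2M came 7th in LNCaP libraries, at 30.6 ± 3.68 FPKM. At the other end, CGAS, the DNA sensor that makes cGAMP, had 0 to 2 counts in any library. MX2, a restriction factor of retroviruses, and OAS2, an enzyme switched on by double-stranded RNA, likewise had 0 to 2 counts. IFI44L, an interferon-induced gene, had 0 to 7 counts. Of 10 interferon genes, 7 (IFNB1, IFNA1, IFNA2, IFNL3, IFNE, IFNK and IFNW1) had 0 counts in all 8 libraries, and the highest count of the other 3 was 3.

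**Figure D1:**
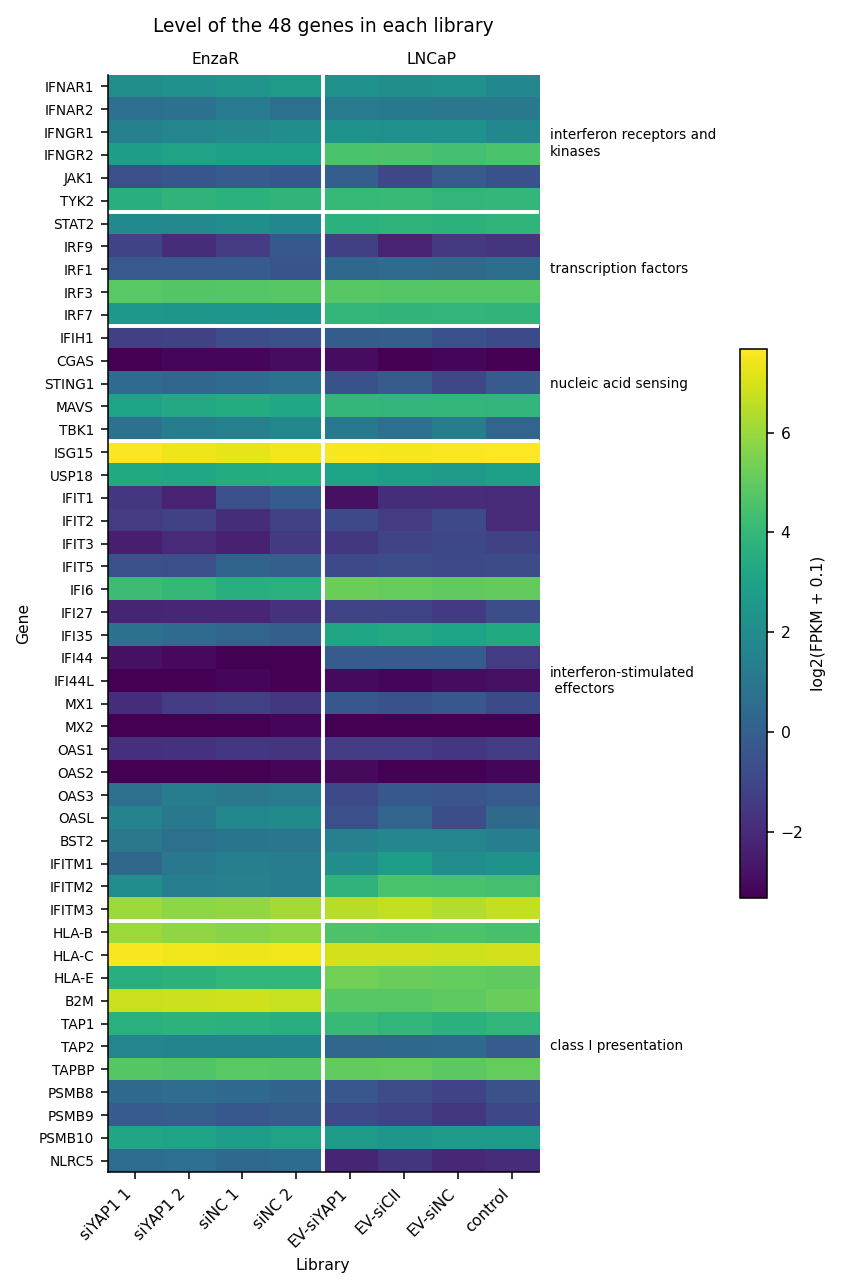
Level of each of the 48 genes (rows, grouped by role) in each of the 8 libraries (columns), coloured by log2(FPKM + 0.1). HLA-C, ISG15, B2M and IFITM3 are bright throughout, at means of 63.9 to 175 FPKM in EnzaR cells, and CGAS, MX2, OAS2 and IFI44L are dark in every library.

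Between the lines, the class I activator NLRC5, the light chain B2M, the transporter subunit TAP2 and the heavy chain HLA-B were higher in EnzaR than in LNCaP libraries, HLA-E was lower, and TAP1 and TAPBP were not called. STAT2, IRF7, IRF1 and the interferon gamma receptor chain IFNGR2 were lower. Among effectors, IFI35 and IFITM2 were lower and the OAS family members OAS3 and OASL were higher. IFI44 had 3 counts over the EnzaR and 134 over the LNCaP libraries. All 4 EnzaR libraries were set against all 4 LNCaP libraries (edgeR quasi-likelihood test, adjusted p under 0.05), with the treatments within each line part of the spread. Of 43 genes of the set that passed the filter on low counts, 15 were called higher and 17 lower. Over all 15640 genes tested, 36.2% were called higher and 36.4% lower, 72.6% in all, so the set's 32 calls of 43 are near the background. What follows therefore describes which roles lay on which side, with the median log2 fold change of each role beside that of all genes tested, -0.008. Left out by the filter were CGAS, IFIT1, IFI44L, MX2 and OAS2. IFI44, IFI27 and IFIT3 passed it through the LNCaP libraries alone and IRF9 and IFIT2 through the EnzaR libraries alone, so the counts and medians that hold them are descriptions. Fold changes fell with transcript GC content (Spearman's rho -0.284 across 15236 genes). Each gene's values are given for siYAP1 and siNC in EnzaR cells and, in LNCaP cells, in the order EV-siYAP1, EV-siCII, EV-siNC and control.

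**Figure D2:**
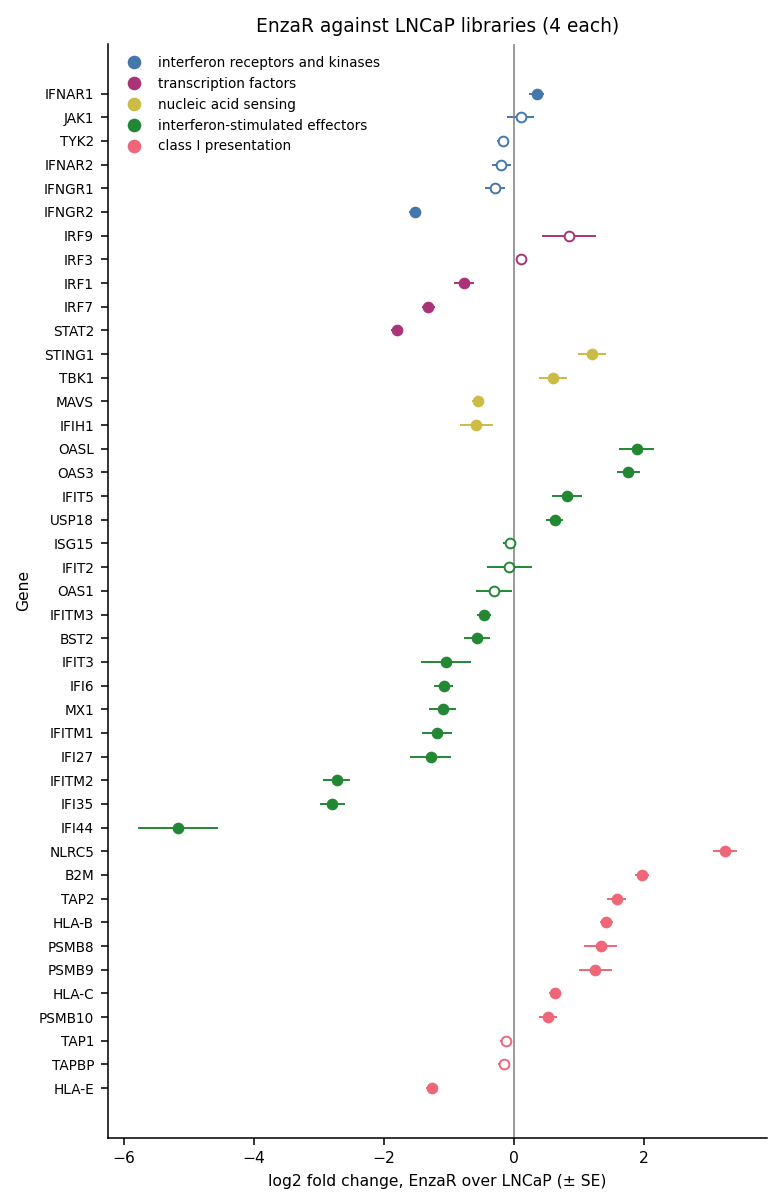
Log2 fold change of EnzaR over LNCaP libraries (x axis, points with SE, 4 libraries each) for the 43 tested genes (y axis), coloured by role; filled points passed an adjusted p of 0.05. Class I genes lie mostly to the right, up to NLRC5 at 3.25, and effectors mostly to the left, down to IFI44, whose fitted value rests on 3 counts in EnzaR libraries.

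Class I presentation showed 8 genes called higher and 1 lower of 11 tested, with a median log2 fold change of 1.26. NLRC5, the transactivator of class I genes (hg19, chromosome 16, 57023397 to 57117443), was at 19.9 and 19.7 CPM (siYAP1) and 15.7 and 16.9 CPM (siNC) in EnzaR cells, against 1.35, 2.57, 1.64 and 1.99 CPM in LNCaP cells. The lines were far apart, and its log2 fold change of 3.25 (SE 0.187, edgeR adjusted p = 1.02e-10) was the largest rise in the set. B2M (chromosome 15, 45003675 to 45011075) was at 389 and 370.0 CPM (siYAP1) and 371 and 337 CPM (siNC) in EnzaR cells, against 83.8, 83.8, 92.0 and 113 CPM in LNCaP cells. No EnzaR library came near a LNCaP library, and the log2 fold change was 1.97 (SE 0.102, edgeR adjusted p = 2.5e-11). With GC content and length corrected it was 1.25 for B2M and 3.90 for NLRC5, both still called. HLA-B (chromosome 6, 31321649 to 31324965) was at 215 and 178 CPM (siYAP1) and 154 and 172 CPM (siNC) in EnzaR cells, against 68.1, 65.4, 66.2 and 67.5 CPM in LNCaP cells. Its spread was wider in EnzaR than in LNCaP libraries, the lines did not overlap, and the log2 fold change was 1.42 (SE 0.098, edgeR adjusted p = 9.33e-10). HLA-C was at 517 and 456 CPM (siYAP1) and 415 and 437 CPM (siNC) in EnzaR cells, against 297, 293, 278 and 305 CPM in LNCaP cells. It was likewise higher in every EnzaR library, by less on the log2 scale, at 0.64 (SE 0.085). HLA-B and HLA-C are polymorphic and close in sequence, so the split of reads between them is uncertain. HLA-E went the other way, at 38.9 and 40.9 CPM (siYAP1) and 44.3 and 44.8 CPM (siNC) in EnzaR cells, against 114, 103, 93.5 and 94.8 CPM in LNCaP cells. Every EnzaR library lay under every LNCaP library, with a log2 fold change of -1.26 (SE 0.092, edgeR adjusted p = 2.01e-09).

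The transporter and its partners split. TAP2, a subunit of the peptide transporter (chromosome 6, 32789610 to 32806557), was at 22.6 and 19.8 CPM (siYAP1) and 19.2 and 19.1 CPM (siNC) in EnzaR cells, against 6.87, 7.32, 7.50 and 5.12 CPM in LNCaP cells. The lines did not overlap, and its log2 fold change was 1.59 (SE 0.144, edgeR adjusted p = 3.23e-08). TAP1, the other subunit (chromosome 6, 32812986 to 32821755), was at 64.7 and 66.8 CPM (siYAP1) and 61.2 and 57.7 CPM (siNC) in EnzaR cells, against 75.8, 68.4, 57.8 and 70.5 CPM in LNCaP cells. Its values overlapped between the lines and it was not called (log2 fold change -0.12, SE 0.095, edgeR adjusted p = 0.257). TAPBP, the chaperone tapasin that bridges TAP and the heavy chain, was at 151 and 135 CPM (siYAP1) and 146 and 142 CPM (siNC) in EnzaR cells, against 158, 165, 144 and 172 CPM in LNCaP cells, and was not called either (log2 fold change -0.15, edgeR adjusted p = 0.102). The 3 catalytic subunits of the immunoproteasome were called higher, PSMB8 and PSMB9 at low levels. PSMB8 was at 2.85 and 2.996 CPM (siYAP1) and 2.53 and 2.10 CPM (siNC) in EnzaR cells, against 1.30, 0.984, 0.686 and 1.14 CPM in LNCaP cells. PSMB9 was at 2.72 and 2.88 CPM (siYAP1) and 2.20 and 2.59 CPM (siNC) in EnzaR cells, against 1.24, 1.09, 0.686 and 1.31 CPM in LNCaP cells. Neither gene's lines overlapped, with log2 fold changes of 1.34 (SE 0.254) for PSMB8 and 1.26 (SE 0.25) for PSMB9. In the table's coordinates PSMB9 (chromosome 6, 32811913 to 32827362) overlaps PSMB8 and TAP1, and reads in the overlaps cannot be assigned without the strand setting of counting, which the sources used here do not give. PSMB10 averaged 15.5 ± 2.28 CPM in EnzaR and 10.8 ± 0.94 CPM in LNCaP libraries (SD, n = 4), with a log2 fold change of 0.52 (SE 0.139, edgeR adjusted p = 0.00275). Between siNC and control libraries alone, PSMB8, PSMB9 and PSMB10 had log2 fold changes of 1.02, 0.87 and 0.25 and were no longer called.

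In signal transduction, 1 gene was called higher and 1 lower of 6 receptors and kinases (median -0.177), and 0 higher and 3 lower of 5 transcription factors (median -0.764). IFNGR2, the signalling chain of the interferon gamma receptor (chromosome 21, 34775202 to 34851655), was at 23.3 and 24.8 CPM (siYAP1) and 22.03 and 22.02 CPM (siNC) in EnzaR cells, against 65.3, 68.6, 58.9 and 70.1 CPM in LNCaP cells. Its lines lay well apart (log2 fold change -1.51, SE 0.094, edgeR adjusted p = 2.49e-10). IFNGR1, the chain that binds the ligand, was at 8.08 and 8.82 CPM (siYAP1) and 9.40 and 10.9 CPM (siNC) in EnzaR cells, against 12.3, 11.6, 12.2 and 9.22 CPM in LNCaP cells. The lines overlapped and it was not called (log2 fold change -0.29, edgeR adjusted p = 0.0913). IFNAR1, a chain of the type I receptor, was at 29.7 and 30.9 CPM (siYAP1) and 32.6 and 39.7 CPM (siNC) in EnzaR cells, against 28.6, 25.6, 28.0 and 21.8 CPM in LNCaP cells. Its lines did not overlap but were close (log2 fold change 0.35, SE 0.119, edgeR adjusted p = 0.0136), a correction for GC content and length brought the value to 0.01, and the call was lost without siNC library 2 (adjusted p = 0.0768). IFNAR2, the other chain, was at 7.75 and 7.95 CPM (siYAP1) and 9.73 and 7.06 CPM (siNC) in EnzaR cells, against 9.52, 9.29, 8.50 and 9.74 CPM in LNCaP cells, which overlap (log2 fold change -0.19, edgeR adjusted p = 0.252).

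JAK1, the kinase shared by both receptors, was low in both lines, at 3.84 and 4.32 CPM (siYAP1) and 4.95 and 4.42 CPM (siNC) in EnzaR cells, against 5.41, 2.57, 4.59 and 3.70 CPM in LNCaP cells. The values overlapped, with 58 to 90 counts in EnzaR and 47 to 100 counts in LNCaP libraries, and the log2 fold change was 0.11 (SE 0.211, edgeR adjusted p = 0.659). TYK2, the partner kinase on the type I receptor, was at 87.9 and 97.0 CPM (siYAP1) and 84.6 and 97.2 CPM (siNC) in EnzaR cells, against 105, 107, 94.5 and 104 CPM in LNCaP cells, and was not called (log2 fold change -0.17, edgeR adjusted p = 0.082). On the length-scaled measure the kinases stood apart: JAK1 averaged 0.672 ± 0.0988 FPKM and TYK2 13.2 ± 1.14 FPKM in EnzaR libraries, against 0.667 ± 0.211 and 15.9 ± 0.866 FPKM in LNCaP libraries (SD, n = 4).

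STAT2, the STAT named above for the type I complex (chromosome 12, 56735381 to 56753939), was at 24.7 and 22.7 CPM (siYAP1) and 24.5 and 20.8 CPM (siNC) in EnzaR cells, against 74.2, 81.9, 76.5 and 88.7 CPM in LNCaP cells. The lines were widely separated, with a log2 fold change of -1.79 (SE 0.096, edgeR adjusted p = 4.03e-11). IRF9, its DNA-binding partner, was near the limit of counting, at 1.52 and 0.692 CPM (siYAP1) and 1.04 and 2.76 CPM (siNC) in EnzaR cells, against 1.14, 0.383, 0.951 and 0.854 CPM in LNCaP cells, and was not called (edgeR adjusted p = 0.0706). IRF7, the factor that drives interferon alpha genes (chromosome 11, 612553 to 615999), was at 16.6 and 15.0 CPM (siYAP1) and 13.9 and 14.9 CPM (siNC) in EnzaR cells, against 38.1, 36.7, 36.9 and 37.9 CPM in LNCaP cells. It was lower in every EnzaR library (log2 fold change -1.31, SE 0.102, edgeR adjusted p = 4.47e-09), by 0.788 on the log2 scale once GC content and length were corrected. IRF1, which responds to interferon gamma, was at 6.43 and 5.94 CPM (siYAP1) and 6.10 and 4.91 CPM (siNC) in EnzaR cells, against 8.76, 9.95, 9.51 and 11.4 CPM in LNCaP cells, again without overlap (log2 fold change -0.76, SE 0.152, edgeR adjusted p = 0.000235). IRF3, the factor activated by the sensing pathway, was at 121 and 106 CPM (siYAP1) and 101 and 106 CPM (siNC) in EnzaR cells, against 100.2, 98.5, 97.9 and 105 CPM in LNCaP cells. Its values overlapped and it was not called (log2 fold change 0.11, edgeR adjusted p = 0.231).

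Nucleic acid sensing had 2 genes higher and 2 lower of 4 tested. STING1, the adaptor of cytosolic DNA sensing, was at 5.76 and 4.61 CPM (siYAP1) and 5.11 and 6.24 CPM (siNC) in EnzaR cells, against 2.11, 2.84, 1.48 and 3.02 CPM in LNCaP cells. The lines did not overlap (log2 fold change 1.20, SE 0.217, edgeR adjusted p = 9.19e-05), while its upstream sensor CGAS stayed at 0 to 2 counts. MAVS, the mitochondrial adaptor of RNA sensing, was at 38.2 and 43.8 CPM (siYAP1) and 45.7 and 41.3 CPM (siNC) in EnzaR cells, against 62.1, 60.2, 61.9 and 63.7 CPM in LNCaP cells, all higher in LNCaP (log2 fold change -0.55, SE 0.086, edgeR adjusted p = 2.07e-05). TBK1, the kinase that phosphorylates IRF3, was at 8.68 and 11.6 CPM (siYAP1) and 12.4 and 16.3 CPM (siNC) in EnzaR cells, against 9.46, 6.83, 10.8 and 5.30 CPM in LNCaP cells. The lines overlapped; the call as higher (log2 fold change 0.60, SE 0.215, edgeR adjusted p = 0.019) turned to -0.05 under the GC and length correction. It was lost, too, without siNC library 2 (adjusted p = 0.0925), EV-siCII (0.0779) or control (0.0609). IFIH1, the RNA sensor MDA5, was at 1.59 and 1.61 CPM (siYAP1) and 2.31 and 2.59 CPM (siNC) in EnzaR cells, against 3.62, 3.94, 2.54 and 2.05 CPM in LNCaP cells. It overlapped too: the log2 fold change was -0.57 (edgeR adjusted p = 0.0496) over all libraries and 0.26 between siNC and control libraries. Leaving out siNC library 1, siYAP1 library 1, siYAP1 library 2, EV-siYAP1 or EV-siCII each ended that call (adjusted p = 0.0512 to 0.157).

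Of 17 interferon-stimulated effectors tested, 4 were called higher and 10 lower, with a median of -0.566; 3 of the 10 passed the filter through the LNCaP libraries alone. IFI44, an interferon-induced cytoplasmic protein (chromosome 1, 79115481 to 79129763), had 2 and 1 counts (siYAP1) and 0 and 0 counts (siNC) in EnzaR cells, against 39, 39, 42 and 14 counts in LNCaP cells. Pooled over libraries this was 3 against 134 counts, a log2 ratio of -5.39 with a 95% interval of -7.69 to -3.81 (exact binomial, counting error only). IFI44 passed the filter through the LNCaP libraries alone and so had to differ if tested. IFI35, a regulator of innate signalling (chromosome 17, 41158742 to 41166473), was at 3.58 and 2.77 CPM (siYAP1) and 2.14 and 1.77 CPM (siNC) in EnzaR cells, against 16.6, 18.5, 15.3 and 19.9 CPM in LNCaP cells. The lines lay wide apart (log2 fold change -2.79, SE 0.192, edgeR adjusted p = 9.56e-10). IFITM2, a membrane protein that restricts virus entry (chromosome 11, 307631 to 315272), was at 5.83 and 3.46 CPM (siYAP1) and 3.41 and 3.15 CPM (siNC) in EnzaR cells, against 17.4, 29.5, 28.6 and 28.0 CPM in LNCaP cells. Even the lowest LNCaP library exceeded the highest EnzaR library (log2 fold change -2.72, SE 0.208, edgeR adjusted p = 3.72e-09). IFITM1, IFITM2 and IFITM3 are near-identical in part, and IFITM2 spans IFITM1 in the table's coordinates, so values of the single genes are uncertain. IFI27, a mitochondrial protein, was at 0.53 and 0.576 CPM (siYAP1) and 0.549 and 0.828 CPM (siNC) in EnzaR cells, against 1.51, 1.42, 1.06 and 2.11 CPM in LNCaP cells. It was low in both lines and did not overlap. Since it passed the filter through LNCaP libraries alone, its log2 fold change of -1.28 (SE 0.313) is a description.

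IFI6, an inhibitor of apoptosis, averaged 13.3 ± 3.33 CPM in EnzaR and 27.9 ± 1.83 CPM in LNCaP libraries (SD, n = 4). Its log2 fold change was -1.07 (SE 0.15, edgeR adjusted p = 5.86e-06). The other effectors called lower were IFITM1 (-1.18), MX1 (-1.09), IFIT3 (-1.04, through the filter by its LNCaP libraries alone), BST2 (-0.57) and IFITM3 (-0.46). Of these, BST2, MX1 and IFIT3 were no longer called between siNC and control libraries alone. The IFIT3 call was also lost without siNC library 1 (edgeR adjusted p = 0.0687), siYAP1 library 1 (0.0632), siYAP1 library 2 (0.0507) or EV-siNC (0.0614), and that of BST2 without siYAP1 library 2 (0.0503). OASL, a ribosome-bound OAS relative without enzymatic activity (chromosome 12, 121458095 to 121477045), was at 7.62 and 5.01 CPM (siYAP1) and 7.91 and 8.66 CPM (siNC) in EnzaR cells, against 1.19, 2.46, 1.16 and 3.08 CPM in LNCaP cells. OAS3, the OAS member that senses long double-stranded RNA, was at 14.4 and 20.8 CPM (siYAP1) and 16.2 and 17.7 CPM (siNC) in EnzaR cells, against 3.46, 5.63, 5.12 and 6.15 CPM in LNCaP cells. Both were higher in every EnzaR library, with log2 fold changes of 1.89 (SE 0.274) for OASL and 1.76 (SE 0.177) for OAS3, while OAS1 was not called (-0.30, edgeR adjusted p = 0.341). USP18, the protease that removes ISG15 from proteins and blocks the type I receptor, was at 23.8 and 21.4 CPM (siYAP1) and 22.9 and 23.7 CPM (siNC) in EnzaR cells, against 16.6, 14.9, 11.8 and 16.0 CPM in LNCaP cells. It did not overlap between lines (log2 fold change 0.63, SE 0.126, edgeR adjusted p = 0.000244). IFIT5, an RNA-binding relative of IFIT1, averaged 3.18 ± 0.893 CPM in EnzaR and 1.80 ± 0.172 CPM in LNCaP libraries (SD, n = 4). It was called higher (log2 fold change 0.82, SE 0.232, edgeR adjusted p = 0.00434), but with GC content and length corrected its value was 0.05 (adjusted p = 0.856). IFIT1, left out by the filter, had 12 and 6 counts (siYAP1) and 30 and 46 counts (siNC) in EnzaR cells. In LNCaP cells it had 2, 9, 9 and 8 counts. Its lines overlapped, with siYAP1 library 2 at 0.346 CPM under EV-siCII at 0.492 CPM, and most EnzaR counts came from the siNC libraries. IFIT2 was not called (-0.07). ISG15 itself averaged 127 ± 18.5 CPM in EnzaR and 132 ± 9.17 CPM in LNCaP libraries (SD, n = 4) and was not called (log2 fold change -0.06, edgeR adjusted p = 0.615).

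**Figure D3:**
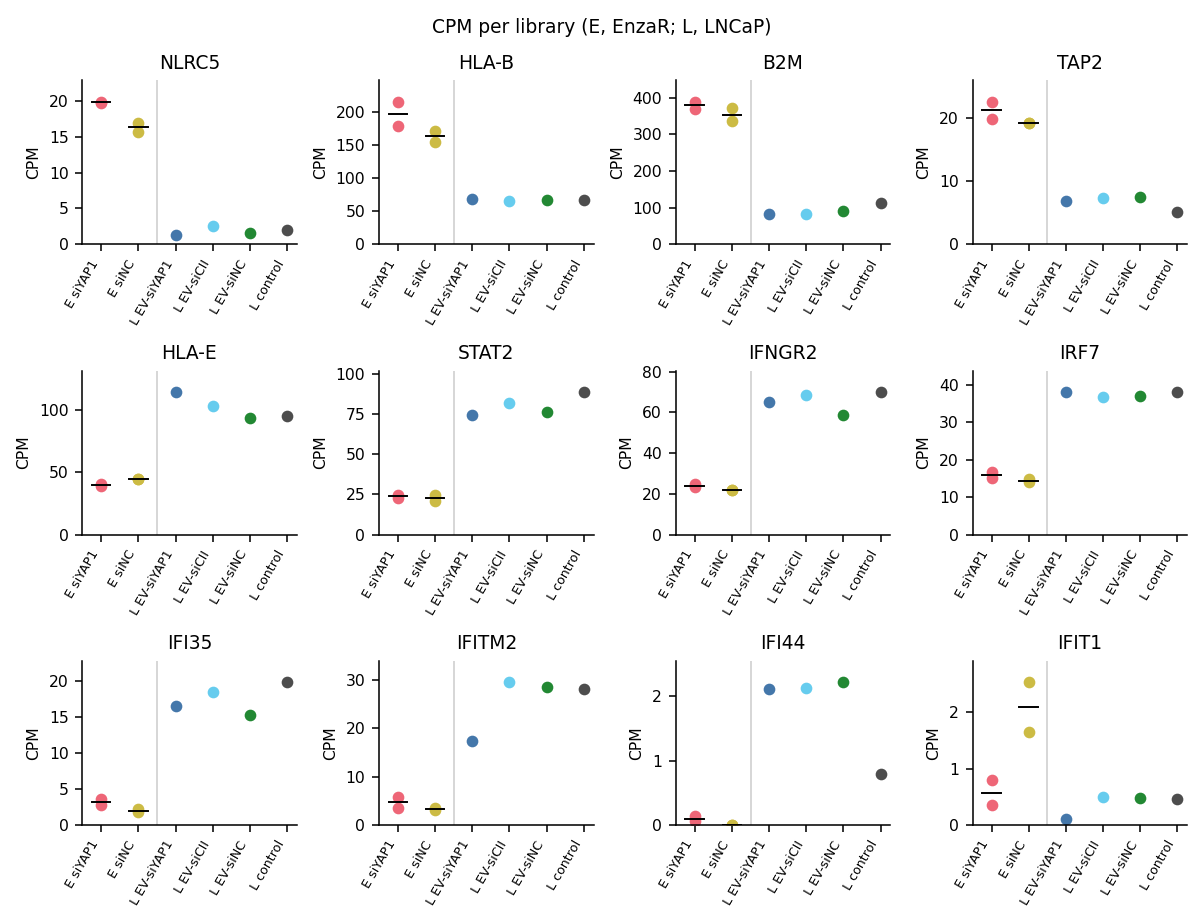
CPM of 12 genes (1 panel each, y axis from 0) in every library, with EnzaR (E) siYAP1 and siNC groups left of the 4 LNCaP (L) libraries; points are libraries and lines are means of 2. NLRC5, HLA-B, B2M and TAP2 are higher in EnzaR, and HLA-E, STAT2, IFNGR2, IRF7, IFI35, IFITM2 and IFI44 higher in LNCaP, while IFIT1 is highest in the siNC libraries.

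Related genes outside the set were counted in lists drawn up by function, with earlier results of these data known. Their counts stand beside 36.2% of all genes called higher and 36.4% called lower. Of 28 tested further interferon-stimulated genes, 4 were called higher and 15 lower in EnzaR libraries, with a median of -0.351. In these lists HERC5, PARP14, HLA-DPA1, HLA-DPB1, SOCS1, SOCS3, STAT6, IFNLR1, NKG7 and the uncalled CMPK2 and CIITA passed the filter through the LNCaP libraries alone and JAK3 through the EnzaR libraries alone, so their values and the counts that hold them are descriptions. HERC5, the ligase that attaches ISG15, averaged 0.192 ± 0.0488 CPM in EnzaR and 3.61 ± 0.839 CPM in LNCaP libraries (SD, n = 4; log2 fold change -4.20). PARP14 (-3.30), LGALS3BP (-2.34) and UBE2L6, the ISG15-conjugating enzyme (-2.16), were lower as well. Of 15 further sensing genes 3 were higher and 5 lower, among them TRIM56 (-1.77), IRF5 (-1.501), NLRX1 (-1.20) and TBKBP1 (-1.05). Of 17 further class I genes 6 were higher and 5 lower, among them TAPBPL (-1.86), RFXAP (1.39) and HLA-F (1.22). MHC class II genes had 0 higher and 4 lower of 5 tested, namely HLA-DMB (-3.14), HLA-DPA1 (-3.00), HLA-DPB1 (-2.49) and HLA-DMA (-1.90). Signal inhibitors had 1 higher and 3 lower of 7. SOCS3, a feedback inhibitor of cytokine receptors, averaged 0.0138 ± 0.0276 CPM in EnzaR and 2.35 ± 0.72 CPM in LNCaP libraries (SD, n = 4), while SOCS1 (-2.63) and PTPN6 (-1.81) were lower and PTPN2 (0.79) higher. Other cytokine receptor, kinase and STAT genes had 1 higher and 5 lower of 8, among them STAT5A (-4.19), IFNLR1, the receptor of type III interferon (-3.93), STAT6 (-2.83) and JAK3 (2.01). Stromal markers summed to 27.6 to 31.2 CPM in EnzaR and 107 to 120 CPM in LNCaP libraries, and leukocyte markers had NKG7 called lower (-2.72); their part in the results was not tested.

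Few genes of the set passed the test after YAP1 depletion in EnzaR cells. IFI6 rose, IFIT1 was called lower at low counts, and no gene of the receptor, transcription factor, sensing or class I groups passed the test. The 2 siYAP1 libraries were compared with the 2 siNC libraries to ask which transcripts differ when YAP1 is depleted (edgeR quasi-likelihood test, adjusted p under 0.05). Of 42 genes of the set tested, 1 was called higher and 1 lower, against 5.83% of all 14948 genes called higher and 6.22% lower, 12.1% in all; the set's share was below that background. At an unadjusted p under 0.05 there were 7 of the set's 42 genes, beside 4339 of all 14948. CGAS, IFI44, IFI44L, MX2, OAS2 and IFIT3 were left out by the filter on low counts. Scaling by library totals alone put the median log2 fold change of all genes at -0.129, against -0.025 with TMM, and made 17% of calls higher, against 48.4%.

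IFIT1, which binds viral RNA lacking normal cap methylation (chromosome 10, 91152303 to 91163745), had 12 and 6 counts in the siYAP1 libraries, against 30 and 46 counts in the siNC libraries. The groups did not overlap and both siYAP1 libraries were low; its mean was 0.57 ± 0.318 CPM in siYAP1 and 2.09 ± 0.629 CPM in siNC libraries (SD, n = 2 each). The log2 fold change was -1.89 (SE 0.473, edgeR adjusted p = 0.0165). IFIT1 passed the filter on low counts only through the siNC libraries, where it is high, so its call is a description. With 1 library left out, the lone library of its group was assumed to vary like the other group. The call was lost without siNC library 2 (adjusted p = 0.159), without siYAP1 library 1 (0.123) and without siYAP1 library 2 (0.106). IFI6 (chromosome 1, 27992572 to 27998729) was at 17.5 and 14.5 CPM in the siYAP1 libraries, against 10.5 and 10.8 CPM in the siNC libraries. Both siYAP1 libraries were higher than both siNC libraries, with a log2 fold change of 0.59 (SE 0.166, edgeR adjusted p = 0.029). Its call was lost with library totals (adjusted p = 0.0706), with a correction for GC content and length (0.162), without siNC library 1 (0.0814) and without siYAP1 library 1 (0.301).

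The IFIT relatives and the remaining effectors gave values short of the threshold. IFIT5 averaged 2.44 ± 0.198 CPM in siYAP1 and 3.91 ± 0.455 CPM in siNC libraries (SD, n = 2 each), with a log2 fold change of -0.68 (edgeR adjusted p = 0.109), and IFIT2 had 0.40 (adjusted p = 0.61). IFI35 averaged 3.17 ± 0.575 CPM in siYAP1 and 1.95 ± 0.267 CPM in siNC libraries (log2 fold change 0.69, edgeR adjusted p = 0.138). ISG15 was at 153 and 124 CPM in the siYAP1 libraries, against 110 and 122 CPM in the siNC libraries. The closest of these libraries nearly touched, and its log2 fold change of 0.26 (edgeR adjusted p = 0.118) came to -0.000221 under the GC and length correction. With 1 library left out, which leaves a lone library in its group, the ISG15 value ran from 0.101 to 0.409. Over the 16 effectors tested the median log2 fold change was -0.02, with 8 above 0, beside -0.025 over all genes. IFIT1 and IFI27 passed the filter through the siNC libraries alone, so the count and median that hold them are descriptions.

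Class I genes had 9 of 11 values above 0 and a median of 0.191, with 0 called. HLA-B averaged 196 ± 26.3 CPM in siYAP1 and 162 ± 12.7 CPM in siNC libraries (SD, n = 2 each), a log2 fold change of 0.27 (SE 0.104, edgeR adjusted p = 0.0898), and only HLA-B in this group had an unadjusted p under 0.05. With 1 library left out, which leaves a lone library in its group, the HLA-B value ran from 0.131 to 0.409. HLA-C had a log2 fold change of 0.19, NLRC5 of 0.28, TAP1 of 0.15, TAP2 of 0.14, PSMB8 of 0.34, PSMB9 of 0.23 and PSMB10 of 0.28. B2M had 0.10, with siYAP1 and siNC libraries overlapping, TAPBP -0.01 and HLA-E -0.16. Fold changes in this comparison followed transcript GC content, with a Spearman's rho of 0.485 across 14547 genes, which are not independent replicates. The 7 genes of the set with an unadjusted p under 0.05 lay along this trend. Transcript GC content was 56.1% for IFI6, 59% for HLA-B, 63.4% for ISG15 and 58.8% for IFI35, all with positive values. It was 42.2% for IFIT1, 37.4% for IFIT5 and 39.3% for TBK1, all with negative values. Other genes of the set lay against it, among them IRF9 (55.4%, -0.80), HLA-E (54.8%, -0.16), IFIT2 (42.8%, 0.40) and B2M (40.6%, 0.10). Whether GC content accounts for any of these values was not tested. With GC content and length corrected, IFIT1 was the 1 gene of the set still called. That call stays a description, since IFIT1 passed the filter only through the siNC libraries, where it is high.

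**Figure D4:**
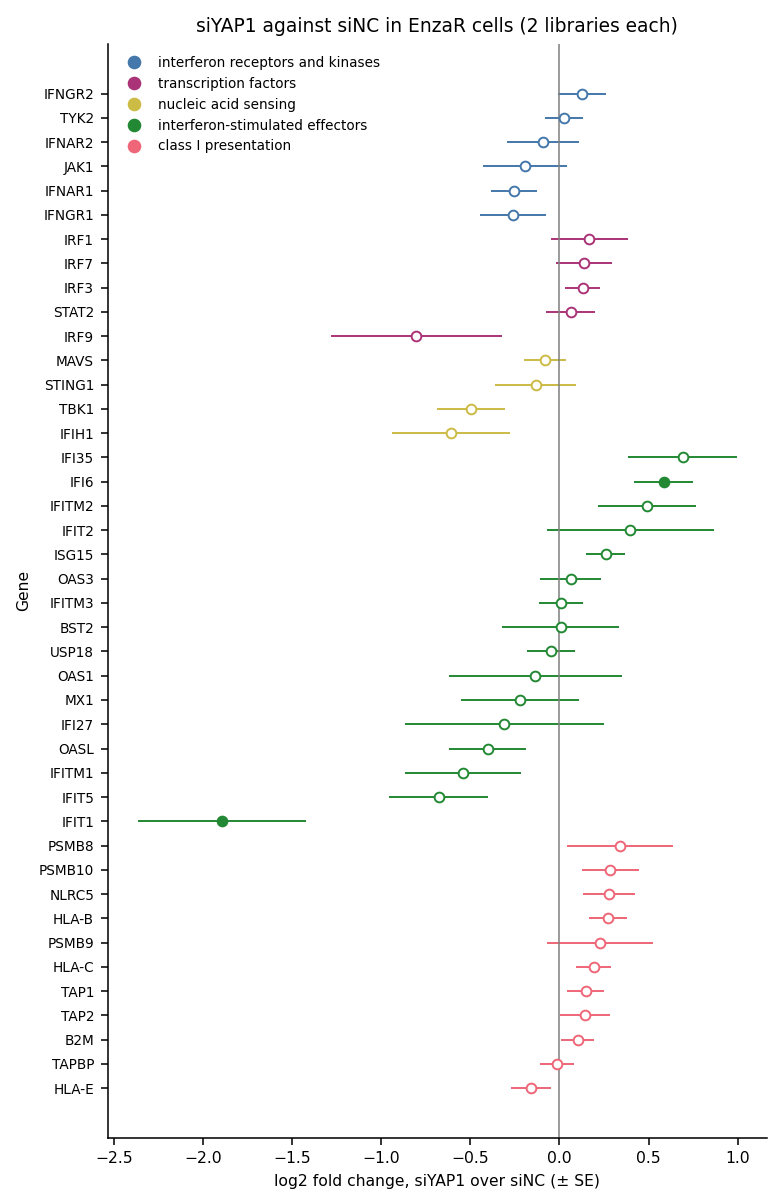
Log2 fold change of siYAP1 over siNC libraries (x axis, points with SE, 2 libraries each) for the 42 tested genes (y axis), coloured by role; filled points passed an adjusted p of 0.05. IFI6 at 0.59 and IFIT1 at -1.89 are the 2 filled points, and 9 of 11 class I genes lie right of 0.

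No receptor, kinase, transcription factor or sensor passed the test. IFNAR1 had a log2 fold change of -0.26 (edgeR adjusted p = 0.197), IFNGR1 of -0.26 (0.371), IFNAR2 of -0.09, IFNGR2 of 0.13, JAK1 of -0.19 and TYK2 of 0.03. STAT2 had 0.06, IRF1 0.17, IRF3 0.13 and IRF7 0.14, and IRF9, at 12 to 50 counts, -0.80 with an SE of 0.479. TBK1 was at 8.68 and 11.6 CPM in the siYAP1 libraries, against 12.4 and 16.3 CPM in the siNC libraries. Its groups did not overlap but each was widely spread, with a log2 fold change of -0.49 (SE 0.191, edgeR adjusted p = 0.0911). With 1 library left out, which leaves a lone library in its group, the TBK1 value ran from -0.723 to -0.27. IFIH1 had -0.61 (edgeR adjusted p = 0.231), STING1 -0.13 and MAVS -0.08.

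Outside the set, SAMHD1, an enzyme that depletes nucleotides needed by viruses, fell after YAP1 depletion, with 42.8 and 42.4 CPM in siYAP1 and 66.4 and 75.3 CPM in siNC libraries (log2 fold change -0.74, SE 0.111, edgeR adjusted p = 0.000822). The groups lay far apart relative to their spread. The list counts that follow stand beside 12.1% of all genes called in this comparison, and SAMHD1 is held by both of the first lists. Of 27 tested further interferon-stimulated genes, 1 was higher (PARP10, 0.32) and 2 lower (SAMHD1 and TRIM5, -0.51). Of 15 further sensing genes, 2 were higher (TICAM1 and TREX1, both 0.37) and 1 lower (SAMHD1). Of 17 further class I genes, 2 were higher (PSMB6, 0.38, and RFXANK, 0.35) and 1 lower (RFX5, -0.44), the last pair being subunits of the factor that works with NLRC5. MHC class II genes had 0 called of 3 tested. The phosphatase PTPN11 (-0.43) was the only call among 6 signal inhibitors and STAT3 (-0.45) among 7 other receptor, kinase and STAT genes.

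In the 3 LNCaP libraries given vesicles from EnzaR cells, B2M was lower and TBK1 higher than in the single control library, and no other gene of the set was called. The 3 libraries, each given vesicles of a different source, were set against the 1 control library, which was assumed to vary like the other 3 (edgeR quasi-likelihood test). An effect of vesicles and a deviation of that 1 control library cannot be told apart. Of 43 genes of the set tested, 1 was called higher and 1 lower, against 2.84% of all 16739 genes called higher and 1.19% lower, 4.03% in all, which is near the set's share. At an unadjusted p under 0.05 there were 10 of the set's 43 genes, beside 3088 of all 16739. IFIT2, among the 10, had 9 counts in the control. It passed the filter through the vesicle libraries alone, so its value is a description. CGAS, IFIT1, IFI44L, MX2 and OAS2 were not tested. Scaling by library totals made 88.3% of all calls higher, against 70.4% with TMM, and a GC and length correction 8.6%.

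B2M was at 83.8, 83.8 and 92.0 CPM in the EV-siYAP1, EV-siCII and EV-siNC libraries, against 113 CPM in the control. All 3 libraries given vesicles were lower than the control, with a log2 fold change of -0.37 (SE 0.092, edgeR adjusted p = 0.0127). Over the 9 alternatives tried, B2M values ran from -0.58 to -0.31. All of these kept the same single control library, so they cannot tell an effect of vesicles from a deviation of that library. Fold changes in this comparison fell with GC content (Spearman's rho -0.419 across 16268 genes), and B2M, at 40.6% GC, moved against that trend. TBK1 was at 9.46, 6.83 and 10.8 CPM in the EV-siYAP1, EV-siCII and EV-siNC libraries, against 5.30 CPM in the control. It was higher in each of the 3, by 0.79 on the log2 scale (SE 0.241, edgeR adjusted p = 0.0464). At 39.3% GC, TBK1 moved with the trend, and after the GC and length correction it had a log2 fold change of 0.50 (adjusted p = 0.428). Its call held under 4 of 9 alternatives and was also lost without the EV-siNC library (adjusted p = 0.175).

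By role, 0 of 6 receptors and kinases, 0 of 5 transcription factors, 1 of 4 sensing genes, 0 of 17 effectors and 1 of 11 class I genes were called. The medians were 0.09, -0.06, 0.35, -0.13 and -0.09 in that order, beside 0.018 over all genes. IFI44 had 39, 39 and 42 counts in the EV-siYAP1, EV-siCII and EV-siNC libraries, against 14 counts in the control. The control stood apart from the others, and the log2 fold change was 1.44 (SE 0.476, edgeR adjusted p = 0.0655). OASL was at 1.19, 2.46 and 1.16 CPM in the EV-siYAP1, EV-siCII and EV-siNC libraries, against 3.08 CPM in the control, a log2 fold change of -0.92 (SE 0.385, edgeR adjusted p = 0.168; without EV-siCII, 0.0408). ISG15 (-0.17), HLA-B (-0.00), HLA-C (-0.06), TAP1 (-0.05) and STAT2 (-0.18) were not called. Of the lists outside the set, the further interferon-stimulated genes had 1 called higher and 0 lower of 30 tested, beside 4.03% of all genes called. In the same comparison, 0 of the further class I, class II, sensing and inhibitor genes were called.

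LNCaP cells given vesicles of different sources could be compared only as single libraries, with no replicate and no test. Ratios were taken over 10673 genes with a mean of at least 5 CPM over the 4 LNCaP libraries, 27 of them in the set, and were counted where they passed 1.5-fold. Between EV-siYAP1 and EV-siNC, 1.19% of all genes passed, 0.581% higher and 0.609% lower, and in the set 1 of 27, IFITM2. IFITM2 was at 17.4 CPM after EV-siYAP1, against 28.6 CPM after EV-siNC, a log2 ratio of -0.71 with a 95% interval of -0.92 to -0.51 (exact binomial, counting error only). The other LNCaP libraries lay at 28.0 and 29.5 CPM, so EV-siYAP1 was the single low one. USP18 came closest to the threshold on the other side, at 16.6 CPM after EV-siYAP1 and 11.8 CPM after EV-siNC (log2 ratio 0.49, interval 0.24 to 0.75).

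Between EV-siCII and EV-siNC, 0.834% of all genes passed 1.5-fold, 0.328% higher and 0.506% lower, and in the set 2 of 27. IFITM1 was at 7.05 CPM after EV-siCII, against 4.22 CPM after EV-siNC (log2 ratio 0.73, interval 0.33 to 1.16). TBK1 was at 6.83 CPM after EV-siCII, against 10.8 CPM after EV-siNC (log2 ratio -0.65, interval -0.99 to -0.33). EV-siNC was the highest of the 4 libraries for TBK1, and EV-siCII the highest for IFITM1. Between EV-siNC and control, 3.7% of all genes passed, 3.2% higher and 0.497% lower, and in the set 1 of 27. That gene was TBK1, at 10.8 CPM after EV-siNC and 5.30 CPM in the control (log2 ratio 1.01, interval 0.66 to 1.39), in a comparison whose ratios fell with GC content (Spearman's rho -0.558 across 10522 genes). These comparisons share the EV-siNC library, so TBK1 in both is not independent. B2M had a log2 ratio of -0.14 (interval -0.23 to -0.04) for EV-siYAP1 against EV-siNC and of -0.13 (interval -0.23 to -0.04) for EV-siCII against EV-siNC.

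**Figure D5:**
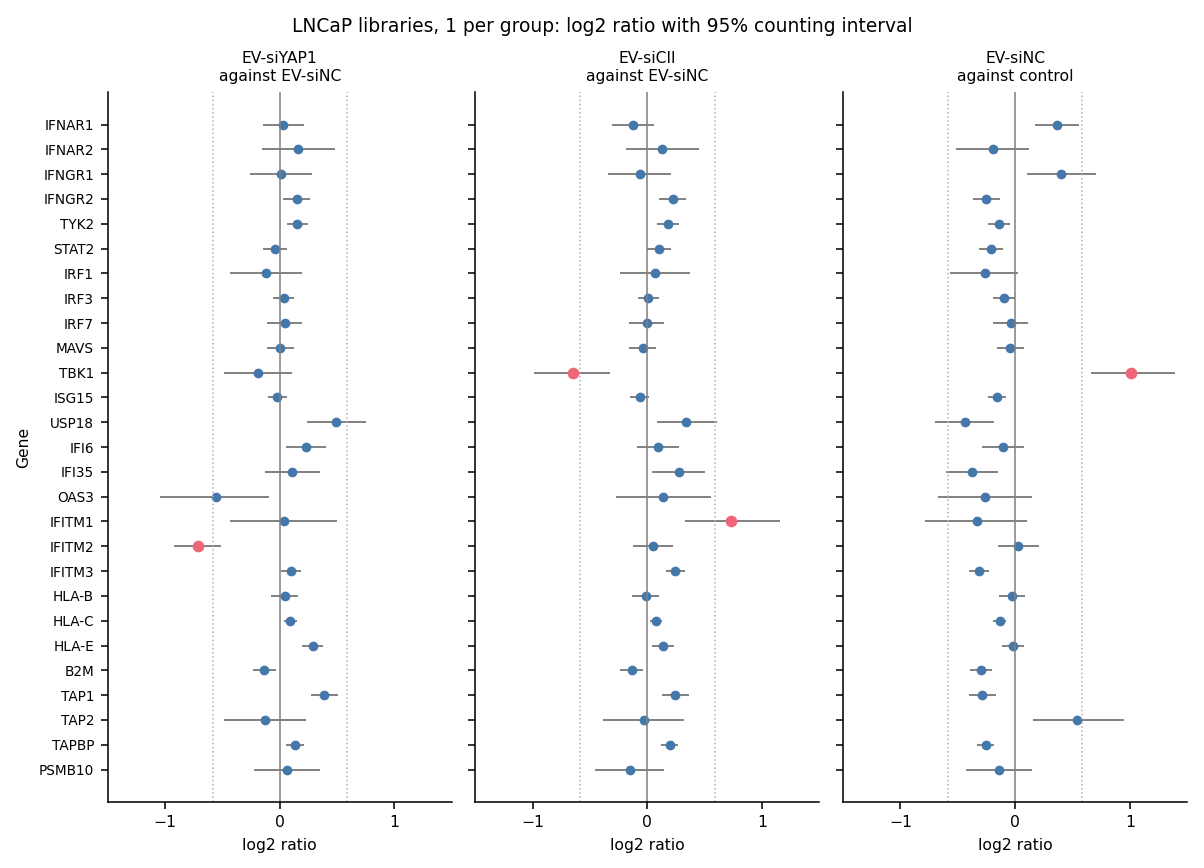
Log2 ratio between single LNCaP libraries (x axis) with 95% counting intervals for the 27 genes with a mean of at least 5 CPM (y axis), in 3 comparisons; dotted lines mark 1.5-fold and red points lie beyond it. IFITM2 passes for EV-siYAP1 against EV-siNC, IFITM1 and TBK1 for EV-siCII against EV-siNC, and TBK1 for EV-siNC against control.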

How the data were processed

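RNA of 8 libraries was harvested with Trizol and sequenced on standard Illumina libraries, per the labels' protocols. The authors deposited 1 table that holds, for each gene and library, a raw count and an FPKM value. HTSeq 0.6.1, HISAT2 2.0.1, DESeq2, cutadapt 1.9.1 and the build hg19 are named, without roles, in the submitters' processing notes. Neither the annotation release nor the strand setting of counting is given in those notes or in the labels. Reads of overlapping or antisense genes therefore cannot be told apart. The deposited FPKM equalled count divided by exonic length and total for all 463240 values within 0.01, and were used for levels across genes only. Gene symbols, matched by identifier, were found for 51996 of 57905 rows (99.24% of counts). Of all pairs of libraries, EV-siNC and EV-siCII differed least (chi-square per degree of freedom 4.71), beyond sampling noise, so no library was a copy of another.

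Counts passing filterByExpr were TMM-scaled and tested without covariates by the robust quasi-likelihood method of edgeR 4.0.16 (R 4.3.3). P-values were adjusted after Benjamini-Hochberg over all genes tested, with a threshold of 0.05. The script was tested on simulated data, with changes put into well-counted genes only. It recovered 60%, 82% and 63% of 1.5-fold changes for siYAP1, the lines and vesicles against control. False calls were 1.9%, 6.2% and 5.9% of calls in that order. Recovery at low counts, where many genes of the set lie, was not tested. Single libraries were compared as log2 ratios of CPM with a prior count of 2 and exact Clopper-Pearson intervals at 95%. Alternatives were DESeq2 1.42.0, limma-voom (limma 3.58.1), other scalings and floors, no filter, each library left out, a replicate block, and a GC content and length surface per library (mgcv 1.9.3). For vesicles against control, the single control library was not left out. GC content came from the longest GENCODE 29 transcript. Promoter sequences are RefSeq's on GRCh38.p14; gene coordinates are those of the deposited table.

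Genes named with values in every library were those called for siYAP1, the 8 largest changes per direction between lines, those called or past 1.5-fold for vesicles, the signalling chain, sensors and class I genes, and up to 4 called genes of each related list; 1 gene that this rule took is not reported here. Members and lists were chosen with earlier results of these data known.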

Additional observations from a re-analysis of the deposited data

Results flagged for a closer look

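Single libraries stood apart within a line in 3 of 81 sets of 4 values tested for a library far from the others; chance gives about 1 in 20. IFI44 was at 0.797 CPM in the LNCaP control, against 2.11 to 2.22 CPM in the 3 libraries given vesicles. IFITM2 was at 5.83 CPM in the first siYAP1 library, against 3.15 to 3.46 CPM in the other EnzaR libraries. In LNCaP cells IFITM2 was at 17.4 CPM after EV-siYAP1, against 28.0 to 29.5 CPM in the other libraries. Gene by gene, these gaps took 0.923, 0.884 and 0.876 of the range of the 4 values. Their causes were not tested, and IFITM2 shares sequence and coordinates with IFITM1.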

How the results depend on the processing

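Between the lines, counts of the set's calls stayed at 13 to 17 higher and 14 to 21 lower over 16 alternatives, beside 15 and 17. Single values were followed only for the 32 genes with an unadjusted p under 0.05 in the edgeR test as reported, IFI44, IFI27 and IFIT3 among them. Of their 511 values, 480 kept their direction and side of the threshold. The genes were picked for differing in these same data, so that share is a description. TBK1 turned to -0.0484 under the GC and length correction and IFIH1 to 0.258 between siNC and control libraries alone. For siYAP1 against siNC, the 1 gene called higher became 0 with library totals and 0 with the GC and length correction, and 0 to 3 with a library left out; the 1 called lower became 0 with DESeq2, which gave IFIT1 no adjusted p, and 0 to 2 with a library left out. ISG15 turned to -0.000221 under the GC and length correction. Calls over all genes, 872 higher and 930 lower as reported, came to 374 and 294 under that correction, 234 and 829 without siNC library 1, 579 and 538 without siNC library 2, and 15 and 11 without siYAP1 library 1. The share of calls that were higher, 48.4% as reported, was 66.2% with DESeq2 and 17% with library totals.

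Replicates share only a number, and same-numbered libraries did not deviate together (correlation -0.0798). A replicate block gave 1 higher and 1 lower in the set, as without it, and 1409 calls over all genes. The replicate block with the GC and length correction gave 0 higher, and ISG15 came to -0.00171.

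For vesicles against control, the 1 gene called higher became 0 with DESeq2 size factors, 0 with DESeq2, 0 with limma-voom, 0 with the GC and length correction, 2 with library totals (IFI44 joined) and 0 to 1 with a library left out; the 1 called lower became 1 to 2, OASL joining without EV-siCII. Over all genes 675 calls became 174 under the GC and length correction, 175 with DESeq2 and 420 with limma-voom. For EV-siYAP1 against EV-siNC, a floor of 1 CPM gave 2 higher and a fold of 2 gave 0 lower. For EV-siCII against EV-siNC, a floor of 1 CPM gave 6 higher and 2 lower, a floor of 10 CPM 0 and 0, a fold of 2 again 0 and 0, and the GC and length correction 0 lower. For EV-siNC against control, a floor of 1 CPM gave 3 higher and 5 lower, a floor of 10 CPM 0 higher and library totals 2 higher. Where not stated, the cause was not tested. A count of 3 is worth 0.164 to 0.18 CPM, which limits CGAS, MX2, OAS2 and IFI44L; LNCaP groups of 1 library allow no test between vesicle types.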
